A study of Caenorhabditis elegans with 2 samples.

Results

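The regions described here are 393 peaks of the histone acetyltransferase LSY-12 that lay on an autosome, between protein-coding genes and away from promoters. They were chosen by position from the 2095 peaks that the authors kept after their reproducibility threshold. Of these, 1681 were on autosomes, 1040 of those had a summit outside every protein-coding gene, and 465 of those had it more than 500 bp from every protein-coding gene start. Those with a tRNA, snoRNA, snRNA or miRNA gene start within 500 bp of the summit were then dropped, which left the 393 members. The signal of a peak played no part in the choice beyond the authors' own threshold. The label holds for protein-coding genes only, since 46 member summits (11.7%) lay inside an annotated non-coding gene or pseudogene, as did 13.4% of tiled positions that met the same rule.

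The data came from one group of *Caenorhabditis elegans*, strain OP568, of genotype unc-119(tm4063) III; wgIs568, in which an integrated transgene expresses LSY-12 with a GFP-FLAG tag at its C terminus. Whole L3 larvae of mixed sex were collected 43 h after synchronization at the starved L1 stage, and sonicated chromatin was precipitated with an antibody against GFP. The group held 2 biological replicates, numbered 3 and 4 by the labels. Chromatin came from whole larvae, so a peak cannot be assigned to a cell type, and which cells expressed the tagged protein was not examined. No second genotype, stage or treatment was measured, and neither an untagged strain nor the control library was analysed here. Read depth is unknown from the peak lists, so the 2 replicates give the only error estimate, and no test between conditions was possible.

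LSY-12 belongs to the MYST family of histone acetyltransferases, enzymes that attach acetyl groups to histone tails as part of larger complexes, and it is known for its role in the left-right difference of the ASE taste neurons. Acetylated histones mark active promoters and also enhancers, which can lie far from the gene they act on. In *C. elegans* many transcripts are trans-spliced, so an annotated gene start can lie downstream of the place where transcription begins. Whether a member is an enhancer, an unannotated promoter or something else was not tested.

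The sequence around the summits is shown first for 6 members. They were picked to show the strongest member, the strong member called in only 1 replicate, a member rich in GA repeats and 3 members with the octamer described further on. The last of the 6 was chosen for its copies of the octamer after these were counted. Each line gives 151 bases of the plus strand of WBcel235 (ce11), taken from the RefSeq assembly and centred on the summit. Capitals mark AGACGCAG and its reverse complement CTGCGTCT, the palindrome CACGTG, and runs of at least 3 GA or TC units.
gcc-2/cbp-1, III:9765527-9765677: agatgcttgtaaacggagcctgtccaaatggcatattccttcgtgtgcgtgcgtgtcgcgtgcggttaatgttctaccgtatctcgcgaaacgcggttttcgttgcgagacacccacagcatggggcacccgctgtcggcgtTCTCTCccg
Y105C5A.1/pqn-76, IV:15570893-15571043: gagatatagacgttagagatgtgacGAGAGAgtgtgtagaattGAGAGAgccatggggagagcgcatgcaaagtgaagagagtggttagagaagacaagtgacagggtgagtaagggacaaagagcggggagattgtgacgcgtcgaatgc
T04C4.3/fnip-2, IV:2219553-2219703: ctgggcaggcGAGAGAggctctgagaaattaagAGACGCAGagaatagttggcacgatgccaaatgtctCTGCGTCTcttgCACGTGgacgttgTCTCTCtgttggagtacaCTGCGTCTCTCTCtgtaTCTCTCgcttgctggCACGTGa
F38A6.4/hif-1, V:20778334-20778484: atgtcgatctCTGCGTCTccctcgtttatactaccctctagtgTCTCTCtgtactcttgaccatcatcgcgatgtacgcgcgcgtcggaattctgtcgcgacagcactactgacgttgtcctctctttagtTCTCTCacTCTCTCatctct
srw-60/nhr-88, II:2973988-2974138: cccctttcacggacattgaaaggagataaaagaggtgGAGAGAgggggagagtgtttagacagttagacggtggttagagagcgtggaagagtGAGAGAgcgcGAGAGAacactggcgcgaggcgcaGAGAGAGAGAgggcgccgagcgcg
srh-219/C06B8.7, V:15497872-15498022: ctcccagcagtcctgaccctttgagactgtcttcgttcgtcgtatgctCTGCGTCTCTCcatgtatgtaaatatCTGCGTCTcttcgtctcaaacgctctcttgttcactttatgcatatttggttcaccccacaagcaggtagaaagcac
The T04C4.3/fnip-2 window holds 3 copies of the octamer and 2 of CACGTG, the srh-219/C06B8.7 window 2 copies of the octamer, and the F38A6.4/hif-1 window 1 copy. The window at gcc-2/cbp-1 has no octamer and a GC content of 57.0%. The srw-60/nhr-88 window is GC-rich at 57.6% and carries GA runs on the strand shown.

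Sequence near member summits was richer in G and C than the sequence just beside it. The median GC content within 150 bp of a member summit was 42.5% (quartiles 37.5 and 47.5%), against 33.6% in windows 400 bp to the left, 33.2% in windows 400 bp to the right and 33.6% over 76192 tiled positions that met the same rule on position. Peaks inside genes had a median of 43.2%, peaks at the promoter of 1 gene 39.9% and peaks at promoters of 2 or more genes 37.0%. Repeated sequence was scarcer at members than over the tiled positions, and its share lay within the range of the other groups of peaks. In 24 members (6.11%) more than 10% of the 32-mers of the window occurred elsewhere in the genome, against 24.2% of the tiled positions and 7.38% and 9.41% of the windows 400 bp to the left and right. The share was 4.58% for peaks inside genes, 5.00% at promoters of 2 or more genes, 8.47% at the promoter of 1 gene, 2.23% on the X chromosome away from promoters and 57.9% at short non-coding gene starts. How far reads from repeats were kept in the authors' alignments is not given in the sources used here.

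An octamer, AGACGCAG, stood out among all 8-base sequences within 75 bp of member summits. It was picked after its counts were seen, as the octamer with the largest excess in percentage points over the tiled positions, so its share is a description and not a test. It occurred on either strand in 75 of 393 members (19.1%, 95% exact binomial interval 15.3 to 23.3%), against 0.995% of the tiled positions. In windows of the same length 400 bp to the left and right of the members the shares were 1.53% and 1.27%. Because members are GC-rich, tiled positions with a GC content at or above the members' median were also counted, and there the share was 3.12%. Those positions were nearer to the members in GC content, with a median of 45.2%, but farther in repeats, since 43.6% of them had more than 10% repeated 32-mers. The next most enriched octamers were mostly shifted versions of the same sequence, among them GACGCAGA in 66 members and GAGACGCA in 64.

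Copies of the octamer lay close to the summits, which its choice fixes in part: it was picked for its excess within 75 bp of these same summits, so its positions are a description too. Within 500 bp of the 393 summits there were 151 copies, of which 102 (67.5%) lay within 100 bp, against 20.01% of the copies around the tiled positions. Counted within 150 bp of the summit, 78 members had 1 copy, 14 had 2 and 3 had 3. Read the other way round, 1697 copies lay in autosomal sequence that met the rule on position. A candidate region of the pooled list covered 525 of them (30.9%) and a member covered 127 (7.48%), against 8.92% and 0.63% of the tiled positions.

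**Figure D1:**
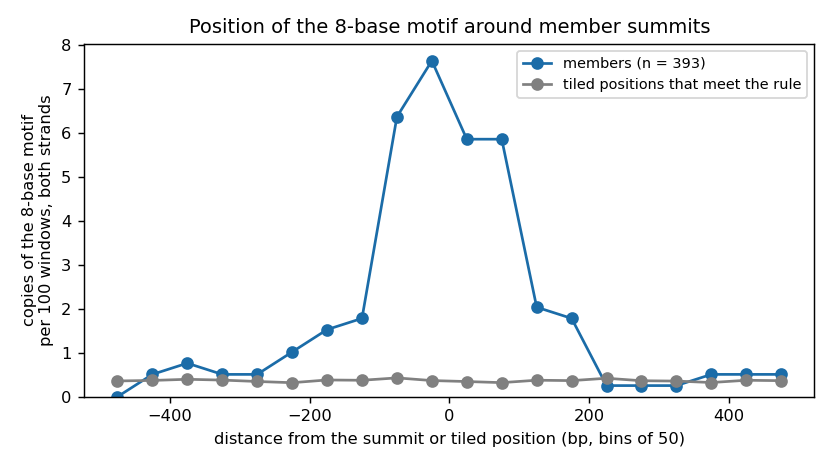
Copies of the 8-base motif per 100 windows (y axis, both strands) against the distance from the summit in bins of 50 bp (x axis), for the members (blue) and for tiled positions that met the same rule on position (grey). The members' line is highest in the 50 bp before the summit, at 7.63 copies per 100 members, and comes down near the grey line beyond 200 bp; the motif was picked for its excess within 75 bp of these summits.

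Other kinds of LSY-12 peaks carried the octamer as well, though those at short non-coding genes rarely had it within 75 bp of the summit. Its share was 15.4% of peaks inside autosomal genes away from promoters (11.8 to 19.4%), whose interval overlaps that of the members, 12.1% of peaks at the promoter of 1 gene (9.69 to 14.96%), 7.27% at promoters of 2 or more genes (4.21 to 11.5%) and 7.14% of X-linked peaks away from promoters (4.14 to 11.3%). Among peaks at short non-coding gene starts it was 0.766%, from 2 of 261, which is not above the 0.995% of tiled positions. Within 150 bp of the summit, those peaks had it in 18 cases (6.90%), against 24.2% of members and 1.97% of tiled positions. Within the members, the 100 of highest signal had it in 23 cases and the 100 of lowest signal in 14, and the intervals of those shares overlap. Members with and without it had similar median relative signals, of 2.71 and 2.72 in replicate 3 and 3.13 and 2.89 in replicate 4. None of the 75 members with the octamer had more than 10% repeated 32-mers, against 24 of the 318 without it.

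The motifs searched from a list, on both strands and within 150 bp of the summit, differed widely in their shares. Tiled positions are given as all of them and as the GC-rich ones alone. GAGAGA occurred in 224 members (57.0%) against 15.03% of tiled positions and 25.8% of the GC-rich ones. CACGTG, the core of many bHLH sites, occurred in 65 members (16.5%) against 4.12% of tiled positions and 6.25% of the GC-rich ones, and CAGCTG in 35 (8.91%) against 4.37% and 6.76%. Words without G or C were scarcer at members than at the tiled positions. The TATA box word TATAAA was present in 18.3% of members against 32.6% of tiled positions, the homeodomain core TAATTA in 6.11% against 14.5%, and poly-T runs 8 bases long in 18.8% against 34.4%. In the GC-rich tiled positions those shares were 12.4%, 5.44% and 11.1%, below the members' shares. TGATAA, which resembles the sites of factors of the GATA family, was at 26.2% in members, 24.97% in tiled positions and 12.5% in the GC-rich ones. Its variant AGATAA was at 13.99%, 17.6% and 10.7% of the same windows. The bZIP word TGACTCA was at 2.04%, 2.90% and 2.09%. The CCAAT box word was at 43.3%, 46.7% and 45.2%, and the GC-rich word CTCCGCCC at 3.82%, 1.13% and 2.35%. The tRNA gene word GGTTCGAAT was in no member window, and short non-coding gene starts had been removed by the rule. How many windows held both the octamer and GAGAGA was not counted.

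Peak height is given as relative signal, the authors' signal for a region divided by the median signal of all 30000 candidate regions of the same replicate. For each member it was read from the strongest replicate region that overlapped it by at least 1 bp. The scale of the signal is not given in the sources used here, so a relative signal says how far a region stood above the typical candidate region and nothing more. Over the members the median was 2.72 in replicate 3 (quartiles 2.25 and 3.79) and 2.93 in replicate 4 (quartiles 2.24 and 3.98), a mean of 2.82 ± 0.150 (SD, n = 2 replicates). Over all thresholded peaks the medians were 2.84 in replicate 3 and 2.97 in replicate 4.

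Intergenic members had lower medians than promoter peaks and higher ones than peaks inside genes. In both replicates the members' median was below that of peaks at the promoter of 1 gene (2.93 and 3.16) and of 2 or more genes (3.28 and 3.46), and above that of autosomal peaks inside genes away from promoters (2.62 and 2.66). The quartile ranges of all these groups overlapped widely, and the gap between members and single promoters was close in size to the gap between the replicates. Peaks on the X chromosome away from promoters had medians of 2.69 and 2.75, and peaks at short non-coding gene starts 3.09 and 3.10. Among the 100 thresholded peaks of highest signal, 15 were members. That is 3.82% of the members, against 4.77% of all thresholded peaks.

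**Figure D2:**
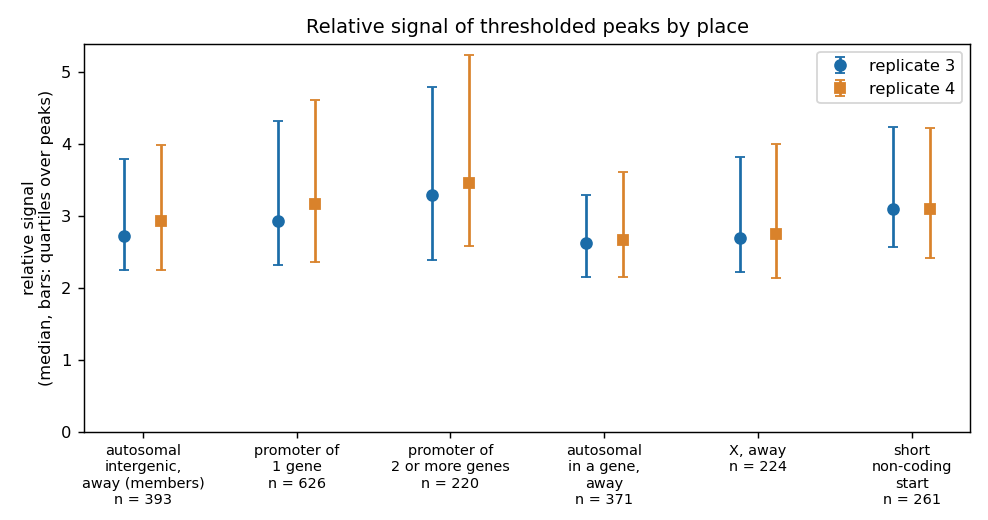
Relative signal (y axis) of thresholded peaks by place (x axis) in replicate 3 (blue circles) and replicate 4 (orange squares), as the median with bars for the quartiles over peaks. Members, at the far left, had medians of 2.72 and 2.93, below both promoter groups and above peaks inside genes, with wide overlap of the bars.

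By q-value and by rank in both replicates the members' shares were close to those of the whole list. All of these peaks had already passed the authors' reproducibility threshold. The authors' q-value was 0.01 or below for 215 members (54.7%, 49.6 to 59.7%), against 58.3% of all thresholded peaks. It belongs to the pooled data and does not measure agreement between the replicates. Of the members, 272 (69.2%, 64.4 to 73.7%) overlapped one of the 2095 strongest regions of each replicate, against 70.6% of all thresholded peaks. A further 59 overlapped one in replicate 3 only, 50 in replicate 4 only and 12 in neither. Before the threshold, 5296 of the 30000 pooled candidate regions met the rule on position, and 393 of them (7.42%, 6.73 to 8.16%) were kept, against 6.98% of all candidates. The share kept was 35.9% at promoters of 2 or more genes and 2.80% inside autosomal genes away from promoters.

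The replicates ranked the members similarly but not tightly. Spearman's rho between the replicates was 0.606 across the 392 members with a region in both, and 0.689 across 2091 thresholded peaks; peaks of one list share its libraries and are not independent samples. The relative signals differed by more than 1.5-fold for 86 members (21.9%) and by more than 2-fold for 13 (3.32%). Over all thresholded peaks those shares were 18.5% and 3.01%. The largest differences were at K07F5.15/nhr-4 (IV:9867924-9868333), with 1.29 in replicate 3 and 3.72 in replicate 4, at arf-1/wrm-1 (III:5717505-5717914), with 2.86 in replicate 3 and 1.04 in replicate 4, and at lin-10/mau-2 (I:8124411-8124820), with 1.57 in replicate 3 and 4.18 in replicate 4. None of these 3 ranked above 1138 of 2095 in the thresholded list.

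Some members are parts of one bound place. In 14 pairs the 2 regions overlapped, so the 393 members stood at 379 separate places. Overlapping members read their relative signal from the same replicate region in 28 cases in each replicate, and such a pair carries 1 measurement and not 2. Counting each pair once left the median relative signal at 2.80.

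The strongest member lay 907 bp upstream of cbp-1, the *C. elegans* ortholog of the CBP/p300 histone acetyltransferases, in the divergent gap that it shares with gcc-2, a golgin gene whose start lay 3459 bp away (III:9765460-9765801). Its relative signal was 18.2 in both replicates (18.2 ± 0.00722, SD, n = 2), and it ranked 10 of 2095 in the thresholded list. At the next member (V:1151343-1151646) the relative signal was 12.7 in replicate 3 and 13.1 in replicate 4. Its summit lay in the long non-coding RNA gene linc-128, 4761 bp upstream of cmd-1, which encodes calmodulin, and 5009 bp past the end of cutl-22, a cuticlin-like gene. The third (III:4899798-4900061) lay between the divergent starts of nhl-2, a TRIM-NHL protein that acts with microRNAs, and tag-340, at 840 and 583 bp, with 12.1 in replicate 3 and 12.5 in replicate 4.

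One strong member was called in a single replicate. At IV:15570857-15571054, 6541 bp upstream of Y105C5A.1 and 8118 bp upstream of pqn-76, a gene for a glutamine- and asparagine-rich protein, replicate 3 had a relative signal of 12.4. Replicate 4 had no overlapping candidate region there at all. This member ranked 33 of 2095 in the thresholded list. It is the only member without a region in one of the replicates, and its value has no replicate error.

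The other strong members lay beside genes of varied function. At T04C4.3/fnip-2 (IV:2219535-2219763), where fnip-2 is a folliculin-interacting protein gene, the relative signal was 10.5 in replicate 3 and 10.1 in replicate 4, with the starts 2772 and 3200 bp away. At nhr-20/F43C1.7 (III:4237779-4237948), 4662 bp upstream of the nuclear hormone receptor gene nhr-20, it was 9.86 and 10.0. At sup-26/R10E4.3 (III:4282092-4282327), 2011 bp upstream of the RNA-binding protein gene sup-26, it was 8.84 and 9.90. At each of these 3 members the replicates differed by less than 1.5-fold.

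Among the rest of the strongest members were neighbours of factor genes. At F38A6.4/hif-1 (V:20778331-20778471), 1998 bp upstream of hif-1, the hypoxia-inducible factor gene, the relative signal was 7.54 in replicate 3 and 9.19 in replicate 4. A lower member at chw-1/egl-9 (V:10466725-10466848) lay 1755 bp upstream of egl-9, whose product hydroxylates HIF-1 and so marks it for destruction, with 6.39 and 5.70; it ranked 196 and was picked for its neighbour after its values were seen. Both members held the octamer. The member 3136 bp upstream of fos-1, a Fos-type bZIP factor gene (V:6000260-6000669), had 7.62 and 6.39. Near the left end of chromosome I, the member between the converging ends of nlp-40, a neuropeptide gene, and rcor-1, a CoREST corepressor gene, had 9.43 and 9.33 and held the octamer.

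In all, the 20 members of highest pooled signal had relative signals between 6.003 and 18.2. For all 19 with a region in both replicates, the replicates differed by less than 1.5-fold. The gap was divergent for 11, tandem for 8 and convergent for 1, and 12 lay more than 2000 bp from any start. Over all 393 members the gap was divergent for 29.3%, tandem for 59.5% and convergent for 11.2%. Of those 393, 179 lay more than 2000 bp from any start. Of the 20, the pairs whose relative signals are not given above are pdi-3/ubql-1, K12H4.6/K12H4.5, F40E3.3/mage-1, gldi-3/mtrr-1, Y48G8AR.8/Y48G8AR.2, wve-1/R06C1.4, srw-60/nhr-88, kin-35/rpa-2, F58D12.1/F58D12.3 and sgn-1/F07H5.13. They include genes for a protein disulfide isomerase (pdi-3), a ubiquilin (ubql-1), a WAVE actin regulator (wve-1) and a replication protein A subunit (rpa-2). At F40E3.3/mage-1 and kin-35/rpa-2, 42.6% and 39.3% of the 32-mers within 150 bp of the summit occurred elsewhere in the genome.

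**Figure D3:**
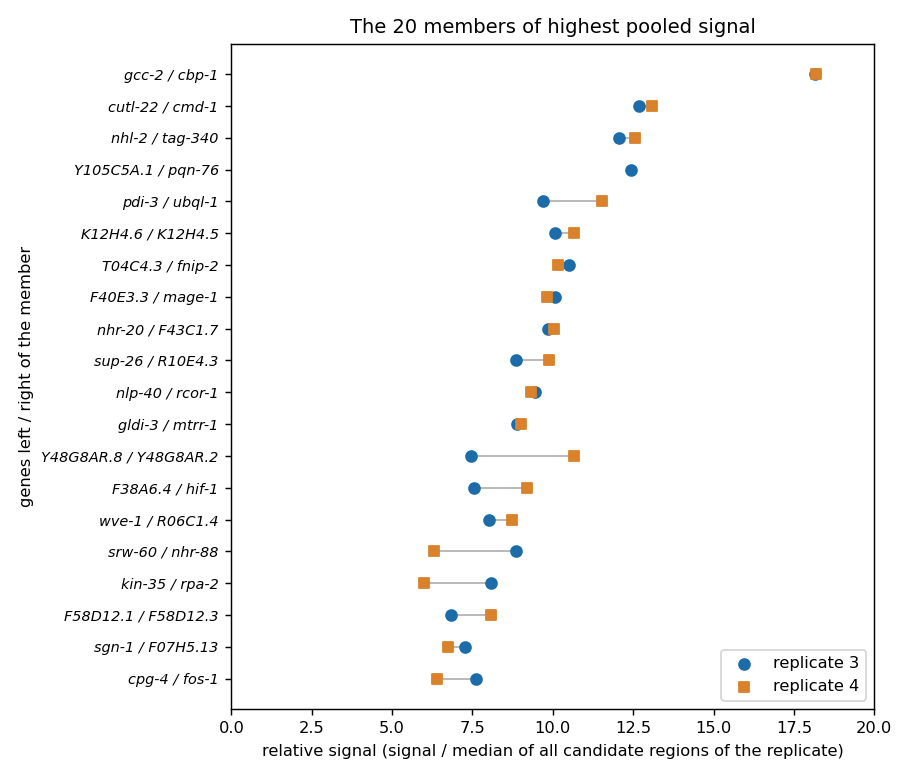
Relative signal (x axis) of the 20 members of highest pooled signal in replicate 3 (blue circles) and replicate 4 (orange squares), labelled by the genes to their left and right (y axis); a grey line joins the replicates. The member at gcc-2/cbp-1 stands apart at 18.2, and the one at Y105C5A.1/pqn-76 has a replicate 3 value only.

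Members became rarer with distance from a start, taken as the outermost annotated start of each gene. The distance from the summit to the nearest protein-coding start had a median of 1814 bp (95% interval from order statistics 1537 to 2011 bp). Its quartiles were 969 and 2905 bp and its range 506 to 19236 bp. With every annotated transcript start counted, the median was 1671 bp. The rule excludes sequence close to starts and long gaps are few, so counts were set against the 22.9 Mb of autosomal sequence that met the rule, which held 17.1 members per Mb. There were 24.7 members per Mb at 501 to 1000 bp from a start (26.5% of members), 18.2 at 1001 to 2000 bp (110), 17.7 at 2001 to 5000 bp (152), 7.30 at 5001 to 10000 bp (24) and 3.84 beyond 10000 bp (3). With mostly single-copy sequence only, the values were 28.8, 21.7, 21.8, 10.0 and 6.70, in the same falling order apart from the near tie of the middle bins.

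Among distance bins of more than 3 members, the nearest had the highest medians. Those at 501 to 1000 bp had median relative signals of 3.06 in replicate 3 and 3.24 in replicate 4, the 110 at 1001 to 2000 bp had 2.64 and 2.74, the 152 at 2001 to 5000 bp 2.71 and 2.82, and the 24 at 5001 to 10000 bp 2.65 and 2.92. Of the nearer ones, 99 (95.2%) lay upstream of the nearest start and not past it, against 89.8% of tiled positions at that distance. Over all members 298 (75.8%) did so, against 71.2% of tiled positions. A summit outside genes can lie this close past a start only where the gene is short, so the rule itself sets most of this share. Values on both sides of the limit overlapped. The 3 members just inside it, at 506, 508 and 511 bp from pmp-2, C07A9.9 and adss-1, had relative signals of 2.43 ± 0.0543, 2.41 ± 0.531 and 4.16 ± 0.807 (SD, n = 2). The 3 intergenic peaks just on the other side, at 496, 494 and 492 bp from Y54G2A.11, smo-1 and gsy-1, had 2.24 ± 0.971, 2.17 ± 0.263 and 2.48 ± 0.321.

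The members farthest from any gene start, with internal transcript starts not counted, showed how far the rule reaches. The farthest (II:1232918-1233327) lay 113 bp past the end of lin-42, the worm homolog of the Period clock genes, whose own start is 19236 bp away, with relative signals of 4.79 in replicate 3 and 5.22 in replicate 4. The next was 12842 bp upstream of C31H1.2 and 20589 bp upstream of the nuclear hormone receptor gene nhr-46, with 2.12 and 2.82. The third, between irld-55 and Y37A1B.7, was 10506 bp from a start, with 2.75 and 3.35. The last 2 of the farthest 5, at T23E1.1/Y67D8B.1 and pph-1/T28B11.1, had 1.89 and 3.56 and 2.80 and 1.43, so replicate 4 was the higher at the first of them and replicate 3 at the second.

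**Figure D4:**
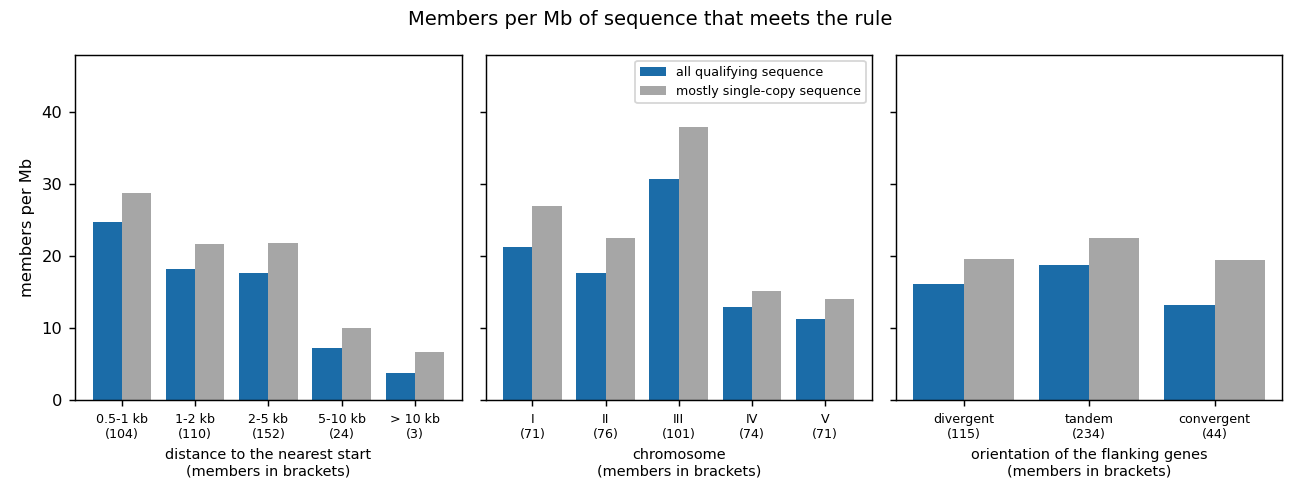
Members per Mb of sequence that met the rule (y axis), by distance to the nearest protein-coding start, by chromosome and by the orientation of the flanking genes (x axes, number of members in brackets), over all such sequence (blue) and over mostly single-copy sequence (grey). Blue values fall from 24.7 at 501 to 1000 bp to 3.84 beyond 10000 bp, and are highest on chromosome III, at 30.7.

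Chromosome III was the densest in members. It held 101, or 30.7 per Mb of sequence that met the rule, against 21.4 on chromosome I (71 members), 17.7 on II (76), 12.9 on IV (74) and 11.3 on V (71). By the same rule the X chromosome had 140 peaks, or 21.5 per Mb, which are not members. Over mostly single-copy sequence the order of the autosomes was the same, from 38.0 on III to 14.1 on V. The central part of the autosomes, the middle of 3 equal stretches of each, had 24.3 members per Mb (173) and the outer stretches together 13.9 (220). Over single-copy sequence these became 28.4 and 17.5.

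The density of members by the orientation of the flanking genes was 16.2 per Mb in divergent, 18.8 in tandem and 13.2 in convergent gaps, or 19.6, 22.6 and 19.5 over mostly single-copy sequence. Divergent gaps, with a gene start on both sides, held 115 members (29.3%, 24.8 to 34.0%) and 31.0% of the sequence that met the rule. Tandem gaps, with a start on one side and an end on the other, held 234 (59.5%, 54.5 to 64.4%) and 54.3% of that sequence, and convergent gaps, with 2 gene ends, 44 (11.2%, 8.25 to 14.7%) and 14.6%. A single gap held a member more often when divergent (96 of 1987, 4.83%) than when tandem (201 of 5385, 3.73%) or convergent (38 of 2263, 1.68%), but divergent gaps were also longer, with medians of 2951, 1568 and 585 bp for the 3 kinds. Median relative signals were 2.82 and 3.20 in divergent, 2.70 and 2.70 in tandem and 2.55 and 3.18 in convergent gaps, in replicates 3 and 4.

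In tandem gaps more members lay on the side of the gene end than of the gene start. Of the 234 tandem members, 85 (36.3%) lay closer to the facing start and 149 closer to the facing end. The rule had removed the 500 bp next to each start but nothing next to ends, so the 2 sides were not open to members alike. Of the tandem tiled positions, 41.1% lay closer to the facing start. Of all members, 120 (30.5%) had a summit within 500 bp of a gene end, against 15.01% of tiled positions. In the convergent gaps the strongest members after nlp-40/rcor-1 and lin-42 were at oaz-1/ZK484.7, with 4.52 in replicate 3 and 6.02 in replicate 4.

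Most gaps held a single member. Of 9645 autosomal gaps with sequence that met the rule, 335 (3.47%) held at least 1, namely 290 with 1, 35 with 2, 7 with 3 and 3 with 4. Gaps with a member were longer, with a median of 3856 bp against 1561 bp over all such gaps. With overlapping members counted once, 36 gaps held 2 or more and 6 held 3 or more.

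The gap between F54F12.1 and Y39E4B.6 on chromosome III (15313 bp, divergent) held 4 separate members. They stood 5858, 7244, 10434 and 13136 bp from F54F12.1, with relative signals of 4.96 ± 0.620, 4.53 ± 0.749, 2.54 ± 0.185 and 3.10 ± 0.360 (SD, n = 2). The gap between lpin-1, a lipin phosphatidate phosphatase gene, and letm-1, a mitochondrial inner membrane protein gene, on V (7127 bp, divergent) also held 4. Their relative signals were 3.05 ± 0.716, 3.84 ± 0.647, 2.93 ± 0.0534 and 5.50 ± 1.64. The gap from K08F11.1 to the F-box gene fbxb-78 on IV (12244 bp, tandem) held 4 members that form 2 overlapping pairs, with 5.45 ± 0.848 for the first pair and 6.28 ± 0.532 for the second.

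**Figure D5:**
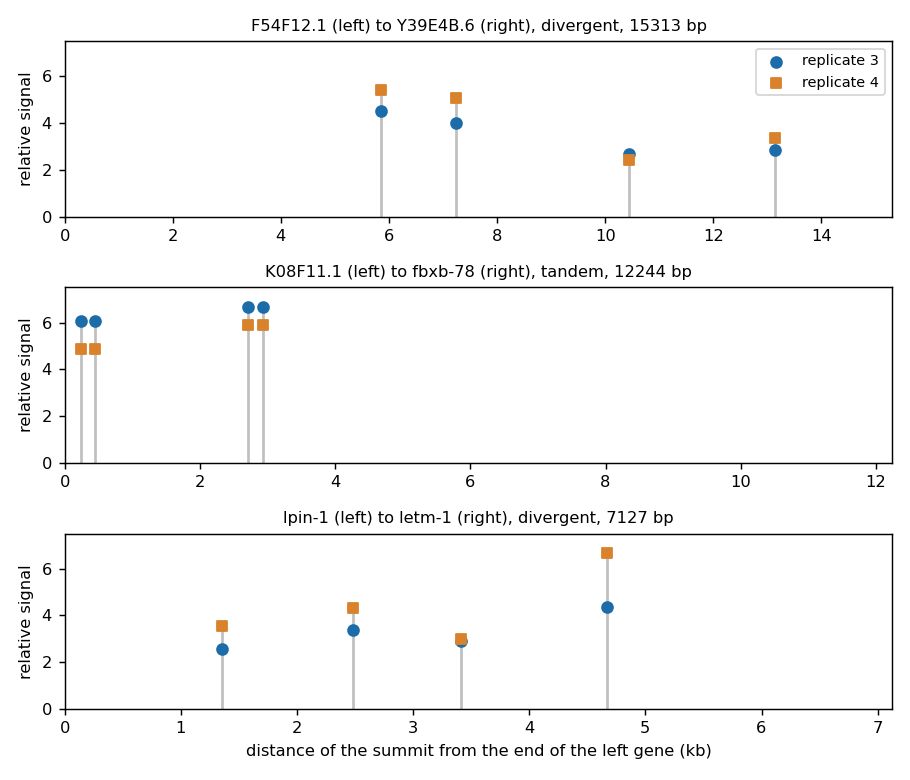
Relative signal (y axis) of the 4 members in each of 3 gaps against the distance of their summits from the left gene (x axis, kb), in replicate 3 (blue circles) and replicate 4 (orange squares). In the K08F11.1 to fbxb-78 gap the points form 2 pairs with equal values, because each pair overlaps the same replicate regions. All 4 members of this gap lay in repeated sequence.

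The gene of the tagged protein itself had 3 members next to it. In the gap upstream of lsy-12 on V, toward the chemoreceptor gene srab-17, they lay 543, 2894 and 5306 bp from the lsy-12 start. Their relative signals were 4.01, 2.4 and 4.50 in replicate 3 and 4.55, 2.33 and 1.97 in replicate 4, so the third differed by more than 2-fold between the replicates. The pooled list had 6 candidate regions in this gap, 4 in the lsy-12 gene and 0 in the 40 kb past its end. The transgene adds copies of DNA from this locus; how much that adds to the signal was not tested, since the control library was not analysed here.

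Annotated non-coding RNA genes were more frequent at member summits than over the rule's sequence, and pseudogenes less. The class named ncRNA in the annotation held 34 members (8.65%) against 1.34% of tiled positions, and lincRNA genes 8 (2.04%) against 0.730%. Pseudogenes held 6 (1.53%) against 11.3%, and 11 members (2.80%) had a piRNA start within 500 bp, against 9.69% of tiled positions. With all these gene classes counted, 11.7% of members and 13.4% of tiled positions lay in one. Members in ncRNA genes had medians of 3.13 in replicate 3 and 3.19 in replicate 4. The strongest were those at nhl-2/tag-340, in F26F4.14, and at pdi-3/ubql-1, where 2 such genes overlap. After linc-128, the strongest lincRNA member was in linc-91, between chd-7 and W09C3.4, with 4.76 and 4.63. The strongest pseudogene member was at zhp-1/tent-5, with 5.05 and 4.17.

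The genes on both sides of the members came to 641 of 17242 autosomal protein-coding genes, 3.72%. A gene with long intergenic sequence beside it has more room for a member, so beside each share the members per Mb of the adjacent gaps are given, against 17.1 over all autosomal gaps. A listed gene is a neighbour on either side, and another gene could lie nearer to the member. The lists describe these peaks and were not tested. They were chosen with earlier results of these data known, and neighbouring genes can share a member. Their intervals therefore cover counting error alone and give no verdict on a list.

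Among histone acetylation, deacetylation and bromodomain reader genes, 3 of 31 (9.68%, 2.04 to 25.8%) flanked a member. They were cbp-1, lsy-12 and bet-1, a double bromodomain protein gene, whose member 1289 bp upstream had 2.76 in replicate 3 and 1.96 in replicate 4. The list had 63.8 members per Mb, from only 5 members in 0.0783 Mb, and 3 of those 5 lie in the lsy-12 gap. Without lsy-12 the share was 6.67%.

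Genes of epidermal, molting and developmental timing regulation had members beside 4 of 27 (14.8%, 4.19 to 33.7%; 27.4 per Mb). Besides lin-42 these were lin-41, a TRIM-NHL timing gene, with 3.86 in replicate 3 and 3.96 in replicate 4 at 1447 bp upstream, blmp-1, a BLIMP-1 homolog, with 2.86 and 2.48 at 1682 bp upstream, and noah-2, a cuticle gene, with 2.04 and 1.85 past its end. Counting only the gene of the nearest start gave 3 of 27 (11.1%, 2.35 to 29.2%), against 2.02% of all genes counted that way. Members of at least the median signal of the thresholded list gave 2 of 27 (7.41%, 0.910 to 24.3%), an interval that includes the 1.84% of all genes.

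Transcription factor lists had between 3.24 and 10.3% of their genes beside a member and between 14.5 and 24.8 members per Mb. The homeobox list was drawn up by gene name and also held genes of other factor classes, among them npax-1 and cfi-1. It had 6 of 69 genes beside a member (8.70%, 3.26 to 17.97%) but 16.1 members per Mb. In replicates 3 and 4, npax-1 was at 2.91 and 4.00, lin-11 at 2.93 and 2.01, ceh-58 at 2.89 and 2.18 and ceh-24 at 2.48 and 2.65. The npax-1 member lay 6331 bp upstream of npax-1 and 1574 bp upstream of nhr-21. The ceh-58 member lay 12752 bp upstream of ceh-58 and 2984 bp upstream of ztf-27. The member of lin-11, a LIM homeobox gene, lay 13016 bp upstream of lin-11 and 1886 bp upstream of csnk-1. The Hox gene mab-5 had one 915 bp upstream with 2.18 and 2.25. Nuclear hormone receptor genes had 8 of 247 (3.24%; 14.5 per Mb), led by nhr-20 and nhr-88. The srw-60/nhr-88 member, 2576 bp upstream of nhr-88, had 8.87 in replicate 3 and 6.31 in replicate 4, and nhr-105 flanked 4 members, 2 of which overlap. Basic helix-loop-helix and forkhead genes had 3 of 39 (7.69%; 16.3 per Mb). These were hif-1, daf-16, the FOXO gene of the insulin pathway, with 3.90 and 4.00 at 755 bp past its end, and mml-1, a Mondo-type factor gene, which had a member on either side with 4.19 and 3.77 at its end and 3.26 and 3.45 upstream. The list of zinc finger, bZIP, GATA, SOX and T-box genes had 9 of 87 (10.3%, 4.84 to 18.7%; 24.8 per Mb). After fos-1 they were led by ztf-27 with 4.11 and 3.86 and lin-13, a synMuv zinc finger gene, with 3.33 and 4.82 at 756 bp upstream. Then came zip-7 with 3.30 and 3.03, its member 11162 bp past its end and 2727 bp upstream of rho-1.

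Neuronal, muscle and signalling genes gave small counts. Neuronal and synaptic genes had 4 of 43 (9.30%, 2.59 to 22.1%; 18.3 per Mb): the syntaxin gene unc-64 with 3.24 in replicate 3 and 3.13 in replicate 4, the proprotein convertase gene egl-3 with 2.71 and 3.37, maco-1 with 2.44 and 2.02 and the kinesin gene unc-104 with 2.1 and 1.91. Neuropeptide and insulin genes had 4 of 108 (3.70%, 1.02 to 9.21%; 10.5 per Mb), namely nlp-40, ins-37 with 3.74 and 3.65, flp-14 with 2.30 and 2.18 and flp-23 with 1.83 and 2.46. Body wall muscle genes had 3 of 32 (9.38%, 1.98 to 25.02%; 30.7 per Mb), with sgn-1, a sarcoglycan gene, at 7.28 and 6.73, the calponin-like gene cpn-3 at 6.52 and 6.35 and pat-4, the integrin-linked kinase gene, at 1.74 and 4.38. Signalling genes had 4 of 42 (9.52%, 2.66 to 22.6%; 25.3 per Mb): wrm-1, a beta-catenin gene, with 4.41 and 4.25, lin-45, the Raf gene, with 3.46 and 3.16, daf-4, a TGF-beta receptor gene, with 3.79 and 2.71, and let-60, the Ras gene, with 2.65 and 2.77. The lin-45 member lay 8047 bp upstream of lin-45 but 692 bp upstream of usp-4. That of sgn-1 lay 3937 bp upstream of sgn-1 and 2950 bp upstream of F07H5.13. The intervals of all 4 shares include the 3.72% of all genes.

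The 2 lists of the largest families had the lowest shares. Chemoreceptor genes had 12 of 1266 (0.948%, 0.491 to 1.65%; 6.47 per Mb), and F-box, MATH and BTB genes 2 of 389 (0.514%, 0.0623 to 1.84%; 5.90 per Mb). Both shares were below the 3.72% of all genes. The F-box gene fbxb-78 and the chemoreceptor gene srw-60 nevertheless stood beside members that ranked 176 and 110 in the thresholded list. Those members lay 9528 bp from fbxb-78 and 12180 bp from srw-60, farther than from the gene on their other side. The other chemoreceptor genes led by signal were srab-17, beside lsy-12, srw-39 with 3.90 in replicate 3 and 4.14 in replicate 4, and srg-69 with 3.34 and 4.12. Cuticle collagen genes had 4 of 147 (2.72%, with 13.7 per Mb), such as sqt-3 with 2.4 and 2.21. In all of them the gene end faced the member, at 327 bp for sqt-3 and up to 1624 bp for col-133. The col-133 member is the one named above for noah-2, whose end lay 75 bp away. Cytosolic ribosomal protein genes had 2 of 79 (2.53%; 29.1 per Mb), at ubl-1 and rpl-31, with 2.59 and 2.49 and with 2.70 and 2.32.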

How the data were processed

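ChIP-seq peak lists of 1 group with 2 biological replicates were used. Per the file descriptions deposited with the lists, candidate regions were called by the authors for each replicate and for both pooled, each against a control alignment. The irreproducible discovery rate (IDR) procedure then gave the thresholded list. Aligner and caller: not given in the sources used. The authors' deposited lists give each region a signal of no stated scale, a −log10 q-value and a summit offset. For 93.4% of members the summit was within 1 bp of the region's midpoint. All 2095 thresholded peaks are rows of the pooled list. Pooled signal ranks the members, and error comes from the replicate lists.

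Positions are ce11 (WBcel235), counted from 1; genes came from Ensembl release 115. Members were found with Python 3.11.15 scripts (numpy 2.4.6, pandas 2.3.3, scipy 1.17.1), whose geometry and motif search were checked on random positions and planted sequence. The 14 gene lists, the motif list and the members were chosen with earlier results of these data known. Named genes followed a rule: neighbours of the 20 strongest members, the 5 members farthest from a start, gaps with 4 members, the strongest members per orientation, list and non-coding class, those next to the 500 bp limit and those that differed most between replicates. The members beside egl-9, mab-5 and srh-219 were named outside this rule. Of the listed names, elt-5 and ram-4 were not matched. Tiled positions stood far enough apart that their windows of 150 bp to either side abut. Intervals on shares are 95% Clopper-Pearson (exact), for counting error alone. No test was run, since there is 1 group. The alternatives tried were stricter thresholds, other distance limits and gene models, other overlap rules and each replicate alone.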

Additional observations from a re-analysis of the deposited data

How the results depend on the processing

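Read depth and an untagged control are missing, so counts of weak members depend on where the authors set their threshold. Of 68 recomputed values, 51 stayed within the limit set for them (1.5 times for the count of members, the SD of the replicate medians for signal, the exact interval for shares, the order-statistic interval for distance). No paired analysis was possible because there is 1 group.

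With peaks at or above the median signal of the thresholded list there were 179 members, with a median relative signal of 3.92 and 34.6% in divergent gaps; with a q-value of 0.01 or below there were 215, at 3.65. A limit of 2000 bp gave 179 members. Scaling by the thresholded peaks' own median gave 0.971. With genes of every biotype other than piRNA as bounds, 22.2% of members were in divergent gaps. Among the strongest regions of one replicate alone were 81.9 to 84.2% of members, a looser condition than both replicates, which leaves 322 to 331 members, and the median relative signal was 2.72 to 2.93 in one replicate alone.

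The share of all autosomal genes beside a member, 3.72%, was 2.02% when only the gene of the nearest start counted and 1.84% when weaker peaks, below the list median, were left out. For the lists, counting only the gene of the nearest start gave 2.90% of homeobox, 0.316% of chemoreceptor and 0% of F-box, MATH and BTB genes. The peaks of above-median signal gave 2.90% of homeobox, 0.395% of chemoreceptor, 0% of collagen and 0% of ribosomal protein genes. For these settings the cause was not tested beyond the smaller number of peaks or genes counted. Chosen after the data were seen were counting overlapping members once (379 members), reading the signal from the region that holds the summit (2.81) and leaving lsy-12 out of its list (6.67%).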
